A study of Mus musculus with 10 samples.

Results

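The major histocompatibility complex (MHC) class II genes of the mouse and their coactivator were followed through 4 sorted groups of bone marrow progenitors. The set was chosen by gene symbol and holds 10 of the 23152 genes with a value on the arrays: H2-Aa, H2-Ab1, H2-Eb1, H2-DMa, H2-DMb1, H2-DMb2, H2-Oa, H2-Ob, Cd74 and Ciita. All 10 had a value. The cells came from adult C57BL/6 mice, no treatment or engineered allele is given, and total RNA was hybridised to Affymetrix arrays. All groups were lineage-negative and Flt3-high. Common lymphoid progenitors (CLPs), sorted as cKit-low, Sca-1-low and CD127+, were divided into Ly6D+ CLPs (n = 2 arrays) and Ly6D- CLPs (n = 2). Lymphoid-primed multipotent progenitors (LMPPs), sorted as cKit-high and Sca-1-high, were divided into CD127+ LMPPs (n = 3) and CD127- LMPPs (n = 3). CD127 is a chain of the interleukin 7 receptor, and the study set the LMPP groups against CLPs. The labels do not say how many animals or sorts stand behind an array, so the p-values speak of the spread among these arrays, which may be technical. The LMPP and CLP samples stand in separate runs of sample numbers in the deposit, and whether they were processed together is not given. A difference between CLPs and LMPPs thus cannot be told apart from one of processing.

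Class II molecules are pairs of an α and a β chain that carry peptides from endosomes to the surface, where CD4 T cells read them. H2-Aa and H2-Ab1 encode the chains of I-A, and H2-Eb1 the β chain of I-E, whose α chain is not made in C57BL/6 mice because H2-Ea is defective. Cd74 encodes the invariant chain, which escorts new class II molecules and leaves a fragment in the peptide groove. H2-DM, an α and β pair from H2-DMa with H2-DMb1 or H2-DMb2, exchanges that fragment for a peptide, and H2-DO, from H2-Oa and H2-Ob, inhibits H2-DM. Ciita encodes a coactivator that does not bind DNA itself but docks on RFX, CREB and NF-Y proteins at the X and Y boxes of these promoters. High class II levels are the property of dendritic cells, B cells and activated macrophages.

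The boxes are shown here because they are the sites through which Ciita is known to act, and some of the promoters of the set hold them. In the RefSeq assembly GRCm38.p6, 8 of the 10 genes, all but Cd74 and Ciita, lie on chromosome 17. The order there among protein-coding genes was H2-Oa, Brd2, H2-DMa, H2-DMb2, H2-DMb1, Psmb9, Tap1, Psmb8, Tap2, H2-Ob, H2-Ab1, H2-Aa, H2-Eb1, H2-Eb2. RefSeq promoter windows, from 250 bases before to 50 after a start, were at hand for 7 of the genes, H2-DMa with 2 windows. The other 3 are H2-Ab1, Cd74 and Ciita. Stretches of 57 bases from 6 windows are printed 5′ to 3′ on the gene's own strand. Capitals mark the Y box letters TGATTGG, the X box letters (AAC, any 2 bases, then ATGATG) or, in H2-Aa, the letters TGACGTCA of a CREB site.
H2-Oa (chr17:34092289-34092345, plus strand): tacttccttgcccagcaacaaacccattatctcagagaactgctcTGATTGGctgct
H2-DMb2 (chr17:34145112-34145168, plus strand): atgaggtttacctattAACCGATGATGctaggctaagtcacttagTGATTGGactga
H2-DMb1 (chr17:34153083-34153139, plus strand): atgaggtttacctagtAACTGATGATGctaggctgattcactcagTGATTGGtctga
H2-Ob (chr17:34238801-34238857, plus strand): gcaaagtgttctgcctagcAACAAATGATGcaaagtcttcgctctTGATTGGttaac
H2-Aa (chr17:34287862-34287918, minus strand): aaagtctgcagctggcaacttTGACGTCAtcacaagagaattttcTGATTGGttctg
H2-Eb1 (chr17:34305761-34305817, plus strand): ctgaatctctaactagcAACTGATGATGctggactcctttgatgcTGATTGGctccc

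Both strands were searched, and the 3 motifs do not overlap in these stretches. The Y box letters began 45 bases before the start in H2-Oa, 92 in H2-DMb2, 63 in H2-DMb1, 59 in H2-Ob, 50 in H2-Aa and 61 in H2-Eb1. They stood in 6 of the 8 windows of the set, and in 7.82% of all 32851 windows of the same length. The X box letters stood in 4 of the 8 windows and in 0.137% of all. The TGACGTCA letters stood in 1 of the 8 and in 1.79% of all. In H2-Aa they directly follow AAC and 2 bases, where ATGATG stands in the X box letters. A window without the exact X box letters may thus still hold an X box. X and Y letters stood together in 9 windows of the whole table, 4 of them those of H2-DMb1, H2-DMb2, H2-Eb1 and H2-Ob. The gap between the boxes was 18 bases in H2-DMb1 and in H2-DMb2, 17 in H2-Eb1 and 15 in H2-Ob. Neither window of H2-DMa held any of the 3. The letters were chosen after the promoters of these genes had been read, so the shares describe the windows and test nothing.

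Values are log2 signals, and a gene's value is the mean of its probe sets that carry that symbol alone. A probe set binds its own target with its own efficiency, so a level is compared across groups within a gene and never between genes. Sensory receptor genes, taken as a reference for low signal, set a limit of 4.43 log2, the 95th percentile of their means. The size of a difference from a group mean under this limit is uncertain, as for Il7r in CD127- LMPPs. Of the 5 genes whose proteins were sorted on, Il7r, Ly6d and Kit differed with the sort, and Ly6a did not follow it. Il7r, which encodes CD127, averaged 9.64 log2 in Ly6D+ CLPs, 9.31 in Ly6D- CLPs and 9.10 in CD127+ LMPPs, against 4.32 in CD127- LMPPs. Ly6d averaged 11.33 log2 in Ly6D+ CLPs and 5.88 in Ly6D- CLPs, and 8.67 in CD127+ LMPPs, which were not sorted on Ly6D, against 4.76 in CD127- LMPPs. Kit was lower in both CLP groups than in CD127- LMPPs, at 7.05 log2 in Ly6D+ CLPs and 7.62 in Ly6D- CLPs, against 8.70 in CD127- LMPPs. Ly6a, which encodes Sca-1, averaged 6.30 log2 in Ly6D+ CLPs and 5.51 in Ly6D- CLPs, both sorted as Sca-1-low, and 7.02 in CD127+ LMPPs and 5.82 in CD127- LMPPs, both sorted as Sca-1-high. It was not called in any comparison by the test below. Flt3, high in all 4 sorts, averaged 10.08 in Ly6D+ CLPs, 10.25 in Ly6D- CLPs, 10.17 in CD127+ LMPPs and 9.82 in CD127- LMPPs. Pairs of arrays correlated across genes at r of 0.9725 to 0.9855 within groups and 0.9546 to 0.9811 between groups. In sorted populations, fewer cells of a type and less RNA per cell cannot be told apart.

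Among the 4 groups, the genes of the set did not move as a block. H2-DMa was lower in CLPs than in CD127- LMPPs, H2-Ob was higher in Ly6D+ CLPs and Cd74 in Ly6D- CLPs than in CD127- LMPPs, H2-Eb1 was higher in CD127+ LMPPs than in CD127- LMPPs, and Ciita passed no test. In the moderated F test of limma over the 4 groups, with p-values adjusted by Benjamini-Hochberg over all 23152 genes, 3 of 10 were called at 0.05 (H2-DMa, adjusted p = 0.0066; H2-Eb1, 0.0257; H2-Ob, 0.0353), where 9.38% of all genes were called. Cd74 stood at adjusted p = 0.0561. The H2-DMa call held in all 19 other settings tried for it. H2-Eb1 lost it without CD127- LMPP array 2 or 3, CD127+ LMPP array 2 or 3 or either Ly6D+ CLP array (adjusted p of 0.0546 to 0.0974). It was also lost with each gene's brightest probe set (0.573) and with a replicate block (0.0742), and held in 11 of 19 other settings. H2-Ob lost it without CD127- LMPP array 1 or 2, any CD127+ LMPP array or either Ly6D+ CLP array (0.051 to 0.139) and with the brightest probe set (0.0551), and held in 11 of 19. Over the 45 pairs of genes in the set, Pearson r across the 10 arrays ran from -0.88 to 0.77, and 25 pairs were positive, as a description of arrays that share group and processing.

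**Figure D1:**
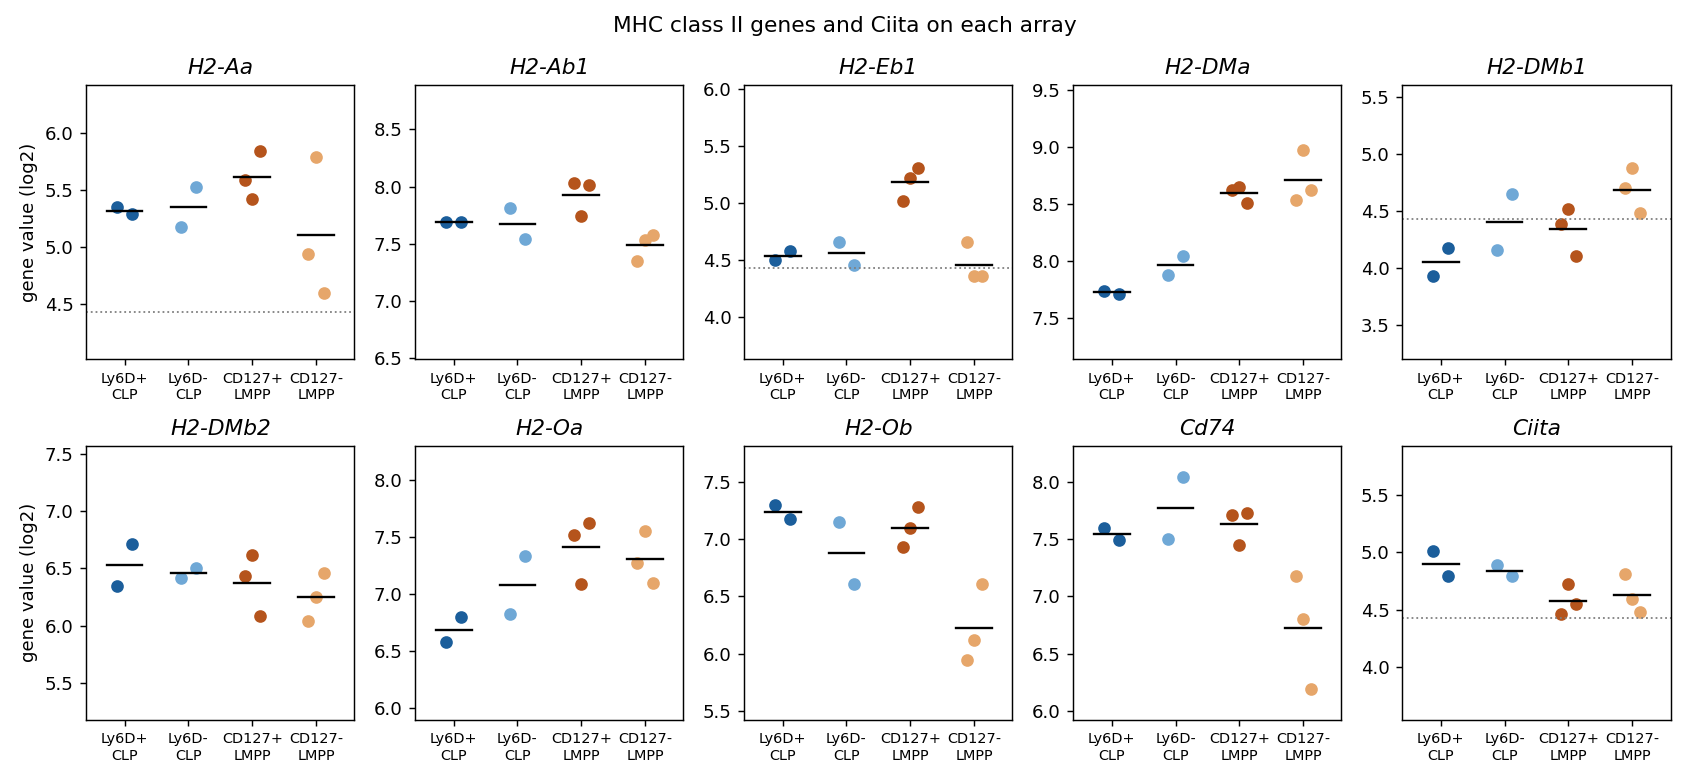
Log2 value of each of the 10 genes (1 panel per gene) on every array, by sorted group, with a short line at each group mean and a dotted line at the low-signal limit of 4.43 where it falls within the panel. H2-DMa sits at 7.71 to 8.04 on the 4 CLP arrays and at 8.51 to 8.97 on the 6 LMPP arrays, while Ciita stays between 4.46 and 5.01 throughout.

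The gene value of Ciita lay just above the low-signal limit in every group. It is a mean of 20 probe sets that averaged from 2.37 to 7.01 log2, 12 of them above the limit. By this value Ciita measured 5.01 and 4.79 log2 in Ly6D+ CLPs, 4.89 and 4.79 in Ly6D- CLPs, 4.46, 4.72 and 4.55 in CD127+ LMPPs, and 4.81, 4.59 and 4.48 in CD127- LMPPs. All 4 CLP arrays were above all 3 CD127+ LMPP arrays, and the CLP and CD127- LMPP arrays overlapped. The order of the means was Ly6D+ CLPs (4.90), Ly6D- CLPs (4.84), CD127- LMPPs (4.63) and CD127+ LMPPs (4.58), and no neighbours in that order differed beyond their spread. Its largest difference, Ly6D+ CLPs minus CD127+ LMPPs, was 0.32 log2 (95% interval of -0.03 to 0.67, adjusted p = 0.302 in limma). Between CD127+ and CD127- LMPPs it was -0.05 log2 (-0.36 to 0.26).

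The classical chains were highest in CD127+ LMPPs by their means, and only H2-Eb1 passed a test. H2-Eb1 measured 4.50 and 4.58 log2 in Ly6D+ CLPs, 4.66 and 4.46 in Ly6D- CLPs, 5.02, 5.22 and 5.31 in CD127+ LMPPs, and 4.66, 4.36 and 4.36 in CD127- LMPPs. The 3 CD127+ LMPP arrays lay above all the others, which stood near the limit by this mean of 6 probe sets. Of the 6, 4 averaged above the limit, at 5.35 to 6.75 log2. H2-Eb1 was 0.72 ± 0.14 log2 (SE) higher in CD127+ than in CD127- LMPPs, a 1.65-fold difference (limma, adjusted p = 0.033). That made 1 of 10 genes called in this comparison, against 1.47% of all genes. The call rested on few arrays. It was lost without CD127- LMPP array 2 or 3, any CD127+ LMPP array or either Ly6D+ CLP array (differences of 0.66 to 0.80, adjusted p of 0.0572 to 0.137), and it held in 7 of all 21 other settings. With each gene's brightest probe set the difference was 0.42 log2 (adjusted p = 0.859).

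H2-Ab1, the β chain of I-A, measured 7.69 log2 on both Ly6D+ CLP arrays, 7.81 and 7.54 in Ly6D- CLPs, 8.03, 7.74 and 8.01 in CD127+ LMPPs, and 7.35, 7.53 and 7.58 in CD127- LMPPs. The CD127+ LMPP arrays all lay above the CD127- LMPP arrays, with a difference of 0.44 ± 0.14 log2 (SE) that missed the threshold (limma, adjusted p = 0.229). H2-Aa, the α chain of I-A, measured 5.35 and 5.29 log2 in Ly6D+ CLPs, 5.18 and 5.53 in Ly6D- CLPs, 5.59, 5.42 and 5.84 in CD127+ LMPPs, and 4.94, 5.79 and 4.60 in CD127- LMPPs. The spread of CD127- LMPPs (SD 0.61) covered the values of every other group but the highest CD127+ LMPP array. The mean of H2-Aa in CD127+ LMPPs was 0.51 ± 0.26 log2 (SE) above that in CD127- LMPPs (limma, adjusted p = 0.521). The order of means was CD127+ LMPPs, Ly6D- CLPs, Ly6D+ CLPs and CD127- LMPPs for H2-Aa and H2-Eb1. For H2-Ab1 the CLP groups stood at 7.69 for Ly6D+ and 7.68 for Ly6D-.

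Cd74 was lowest in CD127- LMPPs. It measured 7.60 and 7.49 log2 in Ly6D+ CLPs, 7.50 and 8.05 in Ly6D- CLPs, 7.71, 7.45 and 7.73 in CD127+ LMPPs, and 7.18, 6.80 and 6.19 in CD127- LMPPs. No array of the 3 CD127+ groups fell as low as the highest CD127- LMPP array. Cd74 was 1.05 ± 0.26 log2 (SE) higher in Ly6D- CLPs than in CD127- LMPPs, a 2.07-fold difference (limma, adjusted p = 0.0376). The same distance was 0.91 ± 0.24 log2 for CD127+ LMPPs (adjusted p = 0.116) and 0.82 ± 0.26 for Ly6D+ CLPs (adjusted p = 0.0734), and these did not pass. They passed in 2 of 21 other settings for CD127+ LMPPs and in 3 of 21 for Ly6D+ CLPs. The call in Ly6D- CLPs held in 7 of 21 other settings, and with the brightest probe set the difference was 0.68 log2 (adjusted p = 0.307). Leaving out 1 array ended it for every array but CD127- LMPP array 1 (differences of 0.77 to 1.33, adjusted p of 0.05 to 0.216). The 3 CD127+ groups differed from each other by 0.23 log2 or less, in intervals that reach from -0.87 to 0.72.

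Of the H2-DM genes, H2-DMa and H2-DMb1 had their highest means in CD127- LMPPs and their lowest in Ly6D+ CLPs (r = 0.68 over the 10 arrays), and H2-DMb2 did not share that order. H2-DMa measured 7.74 and 7.71 log2 in Ly6D+ CLPs, 7.88 and 8.04 in Ly6D- CLPs, 8.62, 8.65 and 8.51 in CD127+ LMPPs, and 8.53, 8.97 and 8.62 in CD127- LMPPs. Every CLP array was below every LMPP array, a split that also follows the separate runs of sample numbers. H2-DMa fell by 0.98 log2 (SE 0.16) in Ly6D+ CLPs relative to CD127- LMPPs, 1.97-fold lower (limma, adjusted p = 0.00359). This call held in 20 of 21 other settings, and the exception asked for a change of at least 2-fold. Relative to CD127+ LMPPs, it fell by 0.86 log2 (SE 0.16) in Ly6D+ CLPs (adjusted p = 0.0152), a call lost without CD127+ LMPP array 2 or either Ly6D+ CLP array (adjusted p of 0.053 to 0.113), with the median of the probe sets (0.0673) or at a 2-fold threshold. In Ly6D- CLPs it fell by 0.75 log2 (SE 0.16) relative to CD127- LMPPs (adjusted p = 0.0195), a call lost without either Ly6D- CLP array (0.0559 to 0.104), with the brightest probe set (0.0504), with the compared arrays alone (0.0883) or at a 2-fold threshold. The difference of -0.64 log2 between Ly6D- CLPs and CD127+ LMPPs missed the threshold (adjusted p = 0.0705) and passed it in 4 of 21 other settings. The order of means was CD127- LMPPs (8.71), CD127+ LMPPs (8.59), Ly6D- CLPs (7.96) and Ly6D+ CLPs (7.73). Limma called no difference between the LMPP groups or between the CLP groups, although the 2 Ly6D+ CLP arrays lay below both Ly6D- CLP arrays.

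H2-DMb1 measured 3.93 and 4.18 log2 in Ly6D+ CLPs, 4.16 and 4.65 in Ly6D- CLPs, 4.39, 4.52 and 4.11 in CD127+ LMPPs, and 4.70, 4.88 and 4.48 in CD127- LMPPs. Of its 4 probe sets, 2 averaged above the low-signal limit. By the gene value only CD127- LMPPs averaged above it, and their arrays lay above both Ly6D+ CLP arrays (difference of -0.63 ± 0.20 log2 (SE) for Ly6D+ CLPs, limma, adjusted p = 0.073). This difference passed in 2 of 20 other settings, with probe sets above the limit (-1.33 log2, adjusted p = 0.0256) and with a replicate block (-0.74, adjusted p = 0.0237). H2-DMb2 measured 6.35 and 6.71 log2 in Ly6D+ CLPs, 6.42 and 6.50 in Ly6D- CLPs, 6.43, 6.62 and 6.08 in CD127+ LMPPs, and 6.04, 6.25 and 6.46 in CD127- LMPPs. Its groups overlapped in all 6 comparisons, and the largest difference was 0.28 log2. H2-DMb1 and H2-DMb2 are near-identical copies, so their probe sets may bind RNA of either, and the split between them is uncertain.

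The chains of H2-DO ran in opposite directions by their means in Ly6D+ CLPs against CD127- LMPPs. H2-Ob measured 7.30 and 7.18 log2 in Ly6D+ CLPs, 7.15 and 6.61 in Ly6D- CLPs, 6.93, 7.10 and 7.28 in CD127+ LMPPs, and 5.94, 6.12 and 6.61 in CD127- LMPPs. All arrays of Ly6D+ CLPs and CD127+ LMPPs lay above those of CD127- LMPPs, and the lower Ly6D- CLP array met the highest of them. H2-Ob was 1.02 ± 0.23 log2 (SE) higher in Ly6D+ CLPs than in CD127- LMPPs, a 2.02-fold difference (limma, adjusted p = 0.0155). That call held in 18 of 21 other settings and was lost without CD127- LMPP array 1 or either Ly6D+ CLP array (adjusted p of 0.057 to 0.111). Between CD127+ and CD127- LMPPs the difference was 0.88 ± 0.20 log2 (SE), which missed the threshold (adjusted p = 0.0678) and passed it in 7 of 21 other settings.

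H2-Oa measured 6.58 and 6.80 log2 in Ly6D+ CLPs, 6.83 and 7.33 in Ly6D- CLPs, 7.52, 7.09 and 7.62 in CD127+ LMPPs, and 7.27, 7.55 and 7.10 in CD127- LMPPs. The Ly6D+ CLP arrays were below all others. The difference was -0.72 ± 0.22 log2 (SE) relative to CD127+ LMPPs and -0.62 ± 0.22 relative to CD127- LMPPs, and neither passed (limma, adjusted p = 0.0946 and 0.102). Each passed in 3 of 21 other settings, and with the brightest probe set they were -1.17 and -1.13 log2 (adjusted p = 0.0371 and 0.0286). The order of means was CD127+ LMPPs (7.41), CD127- LMPPs (7.31), Ly6D- CLPs (7.08) and Ly6D+ CLPs (6.69) for H2-Oa. For H2-Ob it was Ly6D+ CLPs (7.24), CD127+ LMPPs (7.10), Ly6D- CLPs (6.88) and CD127- LMPPs (6.22).

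**Figure D2:**
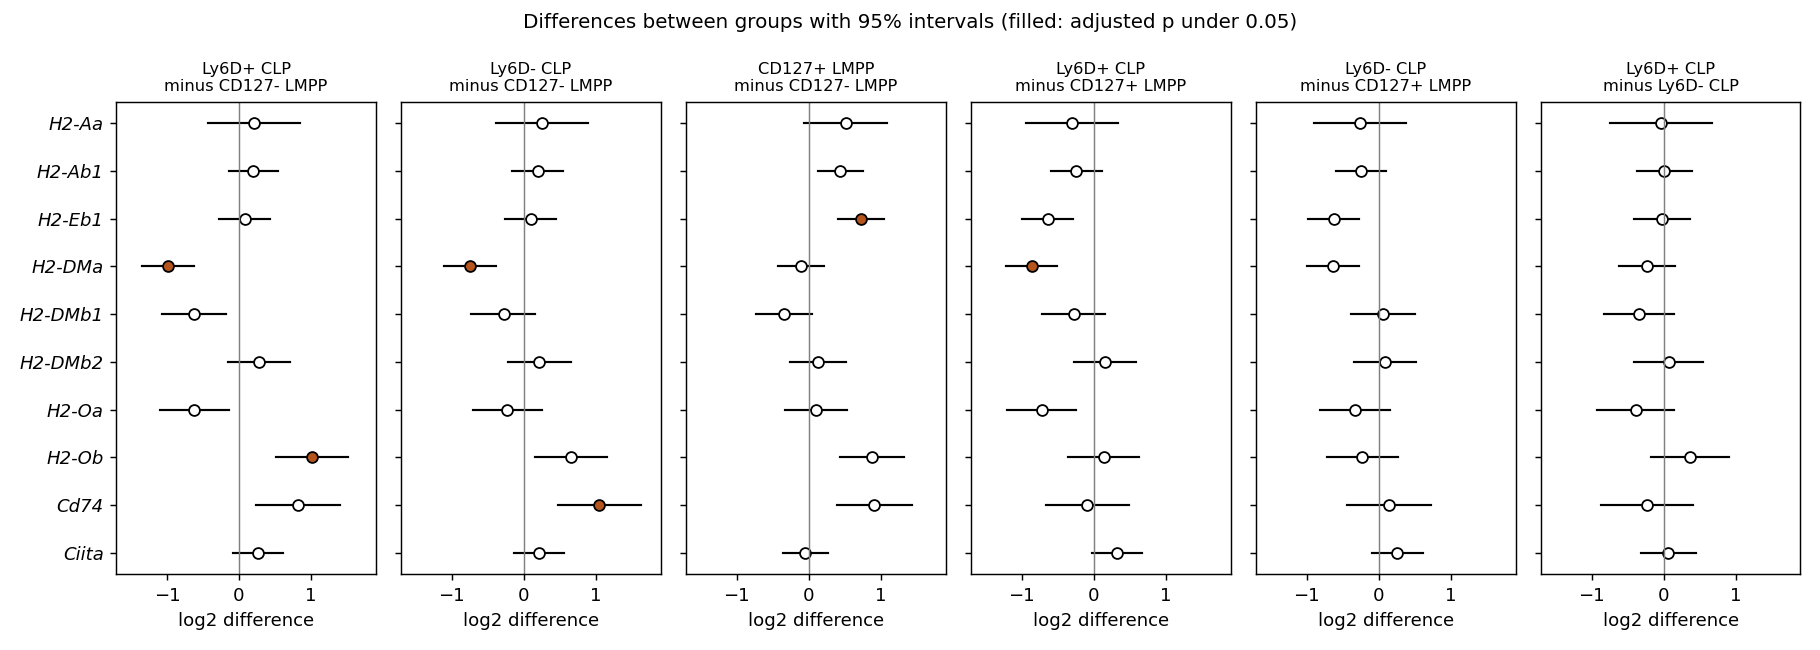
Log2 difference of each gene of the set in the 6 comparisons, with 95% intervals from limma and filled points where the adjusted p was under 0.05. The filled points are H2-Eb1 (0.72) in CD127+ minus CD127- LMPPs, H2-DMa in Ly6D+ CLPs minus CD127- LMPPs (-0.98), Ly6D+ CLPs minus CD127+ LMPPs (-0.86) and Ly6D- CLPs minus CD127- LMPPs (-0.75), H2-Ob in Ly6D+ CLPs minus CD127- LMPPs (1.02) and Cd74 in Ly6D- CLPs minus CD127- LMPPs (1.05).

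Set side by side, the comparisons gave few calls. The comparisons share arrays, so their counts are not independent of each other. Ly6D+ CLPs against CD127- LMPPs had 2 of 10 genes called (H2-Ob higher, H2-DMa lower), against 10.9% of all genes, and the members' median difference was 0.21 log2, against 0.022 over all genes. Ly6D- CLPs against CD127- LMPPs also had 2 (Cd74 higher, H2-DMa lower), against 7.1% of all genes, with medians of 0.20 for the set and -0.003 for all genes. For Ly6D+ CLPs against CD127+ LMPPs the count was 1 (H2-DMa lower), against 4.03% of all genes, with medians of -0.26 and 0.005. For CD127+ against CD127- LMPPs the medians were 0.28 for the set and -0.005 for all genes. These shares rest on 10 genes, so 1 gene is 10% of the set.

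Between Ly6D+ and Ly6D- CLPs, limma called 0 of the 10 genes, where 0.0993% of all genes were called, and 0 had an unadjusted p under 0.05, where 9.1% of all genes did. The differences ran from -0.39 for H2-Oa to 0.36 for H2-Ob. With 2 arrays a group the intervals were wide: that of Cd74 reached from -0.87 to 0.41 log2 and that of H2-Ob from -0.18 to 0.91. In Ly6D- CLPs against CD127+ LMPPs, limma called 0 of the 10, where 2.06% of all genes were called, and 2 (H2-Eb1 and H2-DMa) had an unadjusted p under 0.05, where 18% of all genes did. H2-Eb1 differed there by -0.62 log2 (adjusted p = 0.0718), and by -0.64 log2 in Ly6D+ CLPs relative to CD127+ LMPPs (adjusted p = 0.0507, passed in 5 of 21 other settings). Arrays of the 2 groups did not overlap for 6 of 10 genes in Ly6D+ CLPs against CD127- LMPPs (42.5% of all genes) and for 2 in Ly6D- CLPs against CD127- LMPPs (36.6%). They did not overlap for 6 in Ly6D+ CLPs against CD127+ LMPPs (37.9%), 3 in Ly6D- CLPs against CD127+ LMPPs (34.3%), 4 in CD127+ against CD127- LMPPs (17.7%) and 3 in Ly6D+ against Ly6D- CLPs (37.6%).

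The 10 genes are read by 85 probe sets, 67 of them above the low-signal limit. That limit was set from gene means, so it is only a rough mark for single probe sets. Fitted one by one over all 269751 probe sets, limma called 0 of the 85 in any comparison. The share of all probe sets called was 0.757% in Ly6D+ CLPs against CD127- LMPPs, 0.221% in Ly6D- CLPs against CD127- LMPPs, 0.0389% in CD127+ against CD127- LMPPs, 0.0252% and 0.00111% in Ly6D+ and Ly6D- CLPs against CD127+ LMPPs, and 0.00259% between the CLP groups. At an unadjusted p under 0.05, 22 of the 85 passed in Ly6D+ CLPs against CD127- LMPPs, where 14.5% of all probe sets did. The count was 24 in Ly6D- CLPs against CD127- LMPPs (14.4% of all) and 18 in CD127+ against CD127- LMPPs (6.32%). It was 11 in Ly6D+ CLPs (11.9% of all) and 11 in Ly6D- CLPs (12.8%) against CD127+ LMPPs, and 6 between the CLP groups (7.47%). Probe sets of 1 gene read the same RNA, so these counts are not independent measurements. For Cd74, all 12 probe sets were higher than in CD127- LMPPs in each of the other groups, by 0.27 to 1.61 log2 in Ly6D+ CLPs, 0.52 to 1.52 in Ly6D- CLPs and 0.34 to 1.54 in CD127+ LMPPs. All 12 of H2-Ob were higher in CD127+ than in CD127- LMPPs, by 0.28 to 2.02 log2, and 11 of the 12 were higher in Ly6D+ CLPs than in CD127- LMPPs. All 6 of H2-Eb1 were higher in CD127+ than in CD127- LMPPs, by 0.42 to 1.23 log2. The 1.23 came from a probe set under the low-signal limit, and the 4 above it ran from 0.42 to 0.68. All 6 of H2-DMa were lower in each CLP group than in each LMPP group, by differences of -1.39 to -0.59 in Ly6D+ CLPs against CD127- LMPPs. The -1.39 came from a probe set under the limit, and the 5 above it ran from -1.18 to -0.59. The 20 probe sets of Ciita were split, with 13 positive and 7 negative in Ly6D+ CLPs minus CD127+ LMPPs. The probe sets of H2-Aa disagreed: those for Ly6D+ CLPs minus CD127+ LMPPs ran from -2.11 to 1.21 log2, with 4 positive and 5 negative. Both ends came from probe sets under the limit, and the 6 above it ran from -1.26 to 0.65. Another 2 probe sets that list H2-Oa beside other symbols were left out.

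**Figure D3:**
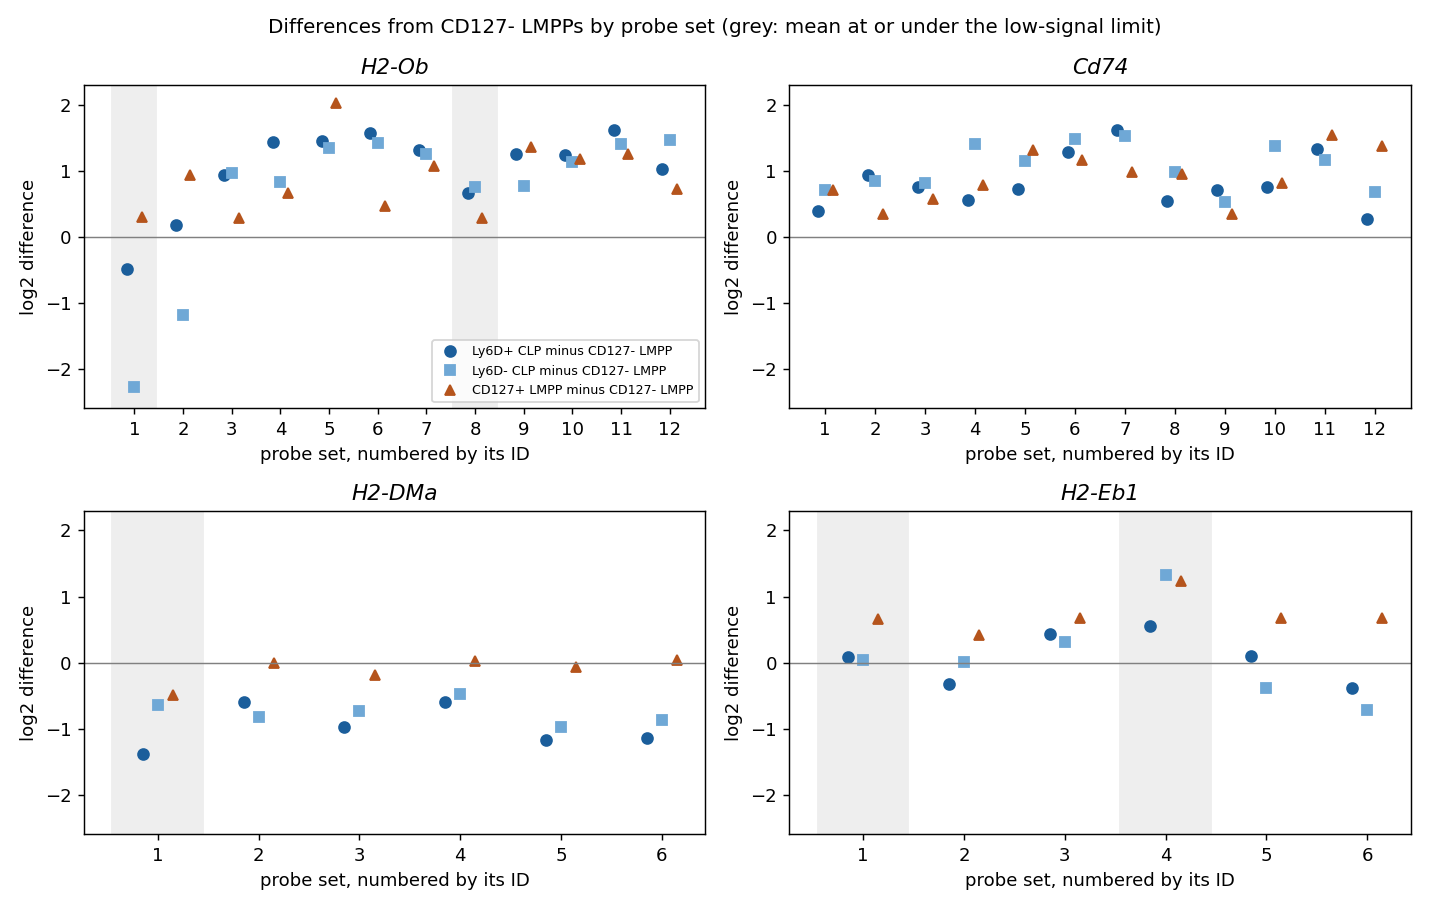
Log2 difference from CD127- LMPPs of each probe set of H2-Ob, Cd74, H2-DMa and H2-Eb1 (1 panel per gene), for Ly6D+ CLPs (circles), Ly6D- CLPs (squares) and CD127+ LMPPs (triangles), with grey bands at probe sets at or under the low-signal limit. Cd74 points all lie above 0, between 0.27 and 1.61, and both CLP symbols of H2-DMa lie below 0 at all 6 probe sets.

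Genes for the proteins that Ciita docks on were not called, while several factors known to act on the Ciita gene or in class II-expressing cells changed. None of Rfx5, Rfxank, Rfxap, Nfya, Nfyb, Nfyc and Creb1 was called in any comparison. In Ly6D+ CLPs against CD127- LMPPs, 2 of the 13 measured genes of the enhanceosome and regulator list rose and 1 fell. Of all genes, 10.9% were called in that comparison, and the list median was -0.10 log2. Spib, an Ets factor of B cells and plasmacytoid dendritic cells, was 1.76 log2 higher (limma, adjusted p = 8.1e-05), with means of 5.35 in Ly6D+ CLPs and 3.59, under the low-signal limit, in CD127- LMPPs. Irf4, an interferon regulatory factor of B cells and dendritic cells, was 1.69 log2 higher (adjusted p = 0.000429), with means of 6.11 in Ly6D+ CLPs and 4.42, also just under that limit, in CD127- LMPPs. Spi1, which encodes the Ets factor PU.1 and is annotated as Sfpi1, fell by 1.19 log2 (adjusted p = 0.00297). In Ly6D- CLPs against CD127- LMPPs, 3 rose (Irf4, Spib and Irf1, an interferon-induced activator of Ciita) and 1 fell (Spi1). The share of all genes called there was 7.1%. In CD127+ against CD127- LMPPs, 0 rose and 1 of 13 fell: Irf8, a factor of dendritic cells and monocytes, had a log2 difference of -1.03 (adjusted p = 0.0257). The share of all genes called there was 1.47%. Against CD127+ LMPPs, Spib and Irf4 rose in Ly6D+ CLPs and Spib rose in Ly6D- CLPs, with a Spib mean of 3.74 in CD127+ LMPPs, again under the limit. Of all genes, 4.03% were called in Ly6D+ CLPs and 2.06% in Ly6D- CLPs against CD127+ LMPPs.

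The list of antigen processing and class II turnover held 13 genes, all measured. In Ly6D+ CLPs against CD127- LMPPs, 2 rose and 3 fell, where 10.9% of all genes were called. Cd83, whose protein holds class II at the surface, was 1.39 log2 higher, with means of 6.15 in Ly6D+ CLPs and 4.76 in CD127- LMPPs, and Ctsl, a cathepsin that trims the invariant chain, was 0.74 higher. The log2 difference was -1.35 for Ifi30, the thiol reductase of the endosome, -0.85 for Cst3, an inhibitor of cathepsins, and -0.70 for Ctsh, another cathepsin. In Ly6D- CLPs against CD127- LMPPs, Cd83 (1.51 log2) rose while Ifi30 (-1.54) and Cst3 (-0.57) fell, where 7.1% of all genes were called. Ctsh was the 1 gene called in CD127+ against CD127- LMPPs, where it fell by 1.28 log2 (limma, adjusted p = 0.00325). The share of all genes called there was 1.47%. Cd83 was also the 1 gene called in each CLP group against CD127+ LMPPs, and it was higher in the CLPs. The share of all genes called was 4.03% for Ly6D+ CLPs and 2.06% for Ly6D- CLPs against CD127+ LMPPs. Ctss, the main cathepsin for the invariant chain in B cells and dendritic cells, was not called in any comparison. H2-Ea-ps, the defective I-E α gene, stayed under the low-signal limit in all groups, at 3.06 log2 in Ly6D+ CLPs, 3.45 in Ly6D- CLPs, 2.98 in CD127+ LMPPs and 3.11 in CD127- LMPPs.

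The MHC class I list, with several genes that lie among the class II genes on chromosome 17, had 14 measured members. In Ly6D+ CLPs against CD127- LMPPs, 0 rose and 3 fell: Psmb10, an immunoproteasome subunit (-1.63 log2), Calr, an endoplasmic reticulum chaperone (-0.61), and Erap1, a peptide-trimming enzyme (-0.51). Of all genes, 10.9% were called there. Psmb10 was the 1 gene called in Ly6D- CLPs against CD127- LMPPs and in each CLP group against CD127+ LMPPs, and it was lower in the CLPs each time. Of all genes, 7.1% were called in Ly6D- CLPs against CD127- LMPPs. Against CD127+ LMPPs the share was 4.03% for Ly6D+ CLPs and 2.06% for Ly6D- CLPs. In CD127+ against CD127- LMPPs, limma called 0 of 14, where 1.47% of all genes were called. At an unadjusted p under 0.05 stood 2 of the 14, where 11.1% of all genes did. The neighbours Tap1, Tap2, Psmb8 and Psmb9, between H2-DMb1 and H2-Ob, were not called in any comparison.

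**Figure D4:**
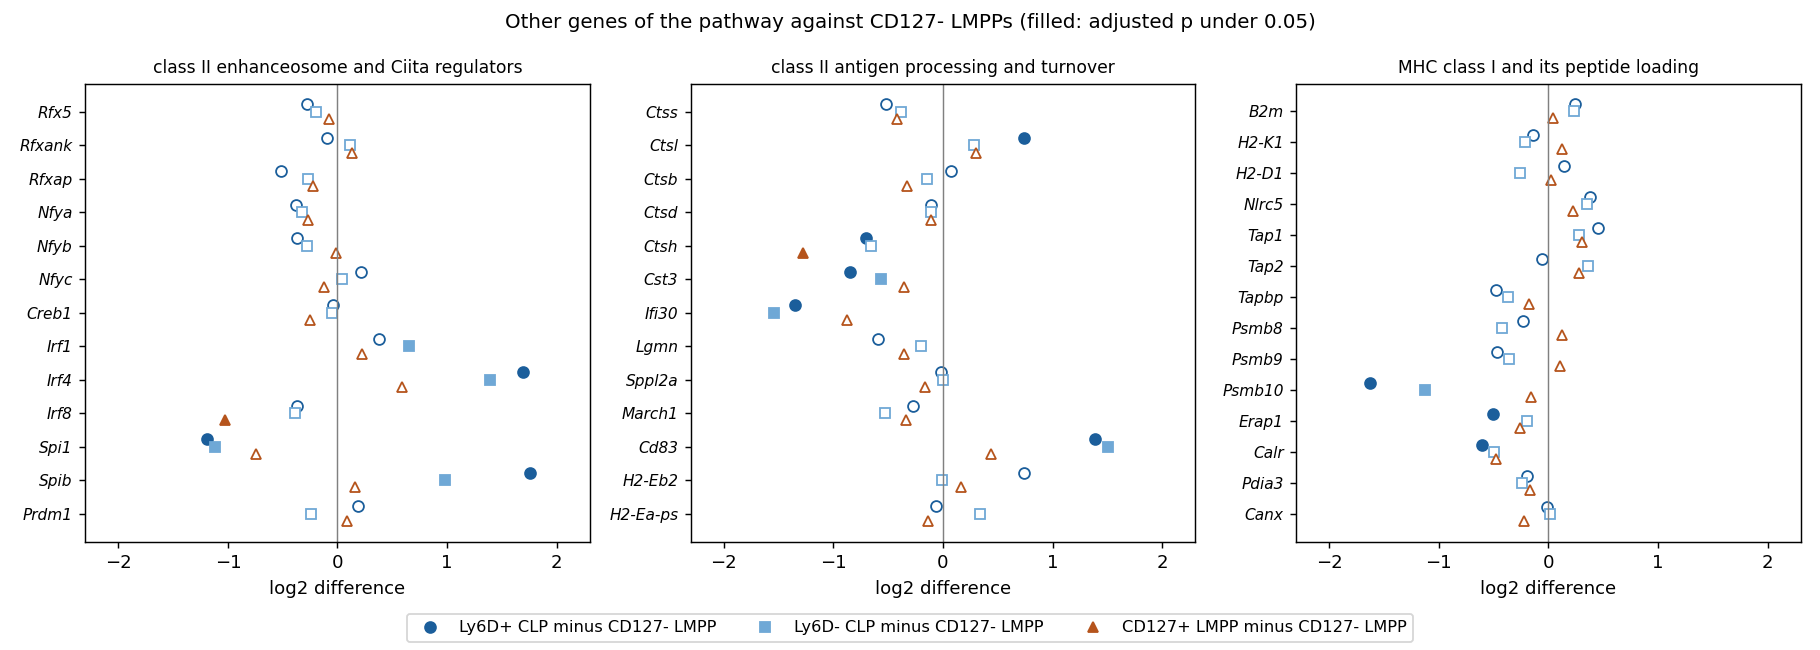
Log2 difference from CD127- LMPPs of the enhanceosome and regulator genes, the antigen processing genes and the MHC class I genes, for Ly6D+ CLPs, Ly6D- CLPs and CD127+ LMPPs, with filled symbols where the adjusted p was under 0.05. Spib reaches 1.76 and Irf4 1.69 in Ly6D+ CLPs, both from means under the low-signal limit in CD127- LMPPs, while the RFX, NF-Y and CREB genes carry no filled symbol.

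Markers of cells that are known to express class II, and of T cells, were set beside these values, and their part in the results was not tested. Of 12 dendritic cell markers, 2 rose (Siglech and Itgax) and 2 fell (Clec9a and Bst2) in Ly6D+ CLPs against CD127- LMPPs. The share of all genes called there was 10.9%. Siglech, of plasmacytoid dendritic cells, averaged 8.92 log2 in Ly6D+ CLPs, 7.71 in Ly6D- CLPs and 6.49 in CD127+ LMPPs, against 5.59 in CD127- LMPPs. Clec9a, of conventional dendritic cells and their precursors, averaged 6.34 log2 in CD127- LMPPs. It was lower elsewhere, at 4.72 log2 in Ly6D+ CLPs, 5.17 in Ly6D- CLPs and 4.17, under the low-signal limit, in CD127+ LMPPs. In CD127+ against CD127- LMPPs, 1 of the 12 rose (Siglech) and 1 fell (Clec9a), where 1.47% of all genes were called. The mean of the list per array was 5.11 to 5.29 log2 in Ly6D+ CLPs, 5.05 to 5.10 in Ly6D- CLPs, 4.84 to 4.90 in CD127+ LMPPs and 4.87 to 5.01 in CD127- LMPPs. Cd209a, Batf3, Fscn1, Cd8a and Itgae were at or under the low-signal limit in all groups.

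Of 10 measured genes of a B cell list, 3 (Blk, Cd79a and Pax5) rose and 1 (Cd52) fell in Ly6D+ CLPs against CD127- LMPPs. The share of all genes called in that comparison, 10.9%, also stands beside the macrophage, monocyte and T cell counts below. Blk (4.29) and Cd79a (3.63) were under the low-signal limit in CD127- LMPPs. The list mean per array was 5.61 to 5.67 log2 in Ly6D+ CLPs, 4.95 to 5.10 in Ly6D- CLPs, 5.01 to 5.15 in CD127+ LMPPs and 4.79 to 5.03 in CD127- LMPPs. Ms4a1, which encodes CD20, Fcer2a and Cr2, markers of mature B cells, were under the limit in all groups. Of 12 macrophage and monocyte markers, 0 rose and 3 fell in Ly6D+ CLPs against CD127- LMPPs: Csf1r (-2.15 log2), Ly6c2 (-1.98) and Cd68 (-1.64). Csf1r (-1.89 log2) and Cd68 (-0.96) also fell in CD127+ against CD127- LMPPs, where 1.47% of all genes were called. That list's mean per array was 5.03 to 5.09 log2 in Ly6D+ CLPs, 5.17 to 5.27 in Ly6D- CLPs, 5.34 to 5.38 in CD127+ LMPPs and 5.51 to 5.80 in CD127- LMPPs. Adgre1, C1qc, Mertk, Vcam1 and Fcgr1 were at or under the limit in all groups. Of 7 measured T cell markers, Cd5 and Cd28 rose in Ly6D+ CLPs against CD127- LMPPs, while Cd3d, Cd3e, Cd3g and Cd4 were under the limit in all groups. The T cell list's mean per array was 4.59 to 4.80 log2 in Ly6D+ CLPs, 4.50 to 4.65 in Ly6D- CLPs, 4.47 to 4.66 in CD127+ LMPPs and 4.17 to 4.32 in CD127- LMPPs.

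The genes most like Cd74, H2-Eb1 and Ciita over the 10 arrays were taken from 806 genes above the low-signal limit whose group means spanned at least 1 log2. For Cd74 they were Gbp7, an interferon-induced GTPase (r = 0.912), Sema4a, a semaphorin of immune cells (r = 0.898), and Rasgrp3, a Ras activator of B cells (r = 0.877). Gbp7 averaged 6.81 log2 in Ly6D+ CLPs, 6.79 in Ly6D- CLPs and 6.72 in CD127+ LMPPs, against 5.67 in CD127- LMPPs. For Ciita they were Sec24d (r = 0.811), of transport vesicles, Skil (r = 0.792), a repressor in TGF-β signalling, and Spag9 (r = 0.787), a kinase scaffold. Skil averaged 7.53 log2 in both CLP groups, 5.98 in CD127+ LMPPs and 6.07 in CD127- LMPPs. Each r describes 10 arrays that share group and processing, and the genes were picked for it.

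For H2-Eb1 the most alike genes were those of granulocytes and of activated myeloid cells. They were Chi3l3, a chitinase-like protein (r = 0.901), Camp, an antimicrobial peptide (r = 0.898), and Lcn2, an iron-scavenging protein of neutrophil granules (r = 0.886). Camp averaged 5.58 log2 in Ly6D+ CLPs, 5.09 in Ly6D- CLPs and 8.39 in CD127+ LMPPs, against 4.76 in CD127- LMPPs. Without the 3 CD127+ LMPP arrays, a choice made after the values were seen, r over the other 7 arrays was 0.61 for Chi3l3, 0.07 for Camp and 0.33 for Lcn2. A list of 11 mature granulocyte markers, also written after these values were seen, includes Camp and Lcn2 themselves. It had 6 genes called higher and 0 lower in CD127+ against CD127- LMPPs, where 1.47% of all genes were called. S100a8 was among the 6 (10.80 log2 in CD127+ and 7.52 in CD127- LMPPs). Mmp8 (log2 difference of -0.64) and Cxcr2 (-0.51) had lower means in CD127+ LMPPs and were not called. The mean of the list per array was 4.64 to 5.34 log2 in Ly6D+ CLPs, 4.89 to 4.92 in Ly6D- CLPs, 6.28 to 7.02 in CD127+ LMPPs and 4.53 to 5.50 in CD127- LMPPs. Mmp9 and Ly6g, on the same list, were at or under the limit in all groups. The 3 CD127+ LMPP arrays were highest both in the mean of this list and in H2-Eb1. Camp and Lcn2 were picked for their r with H2-Eb1, so this match is no separate evidence. Among these 3 arrays, array 3 was highest in H2-Eb1 (5.31 log2) and array 2 in Camp (8.81). The part of granulocyte transcripts in the H2-Eb1 difference was not tested.

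**Figure D5:**
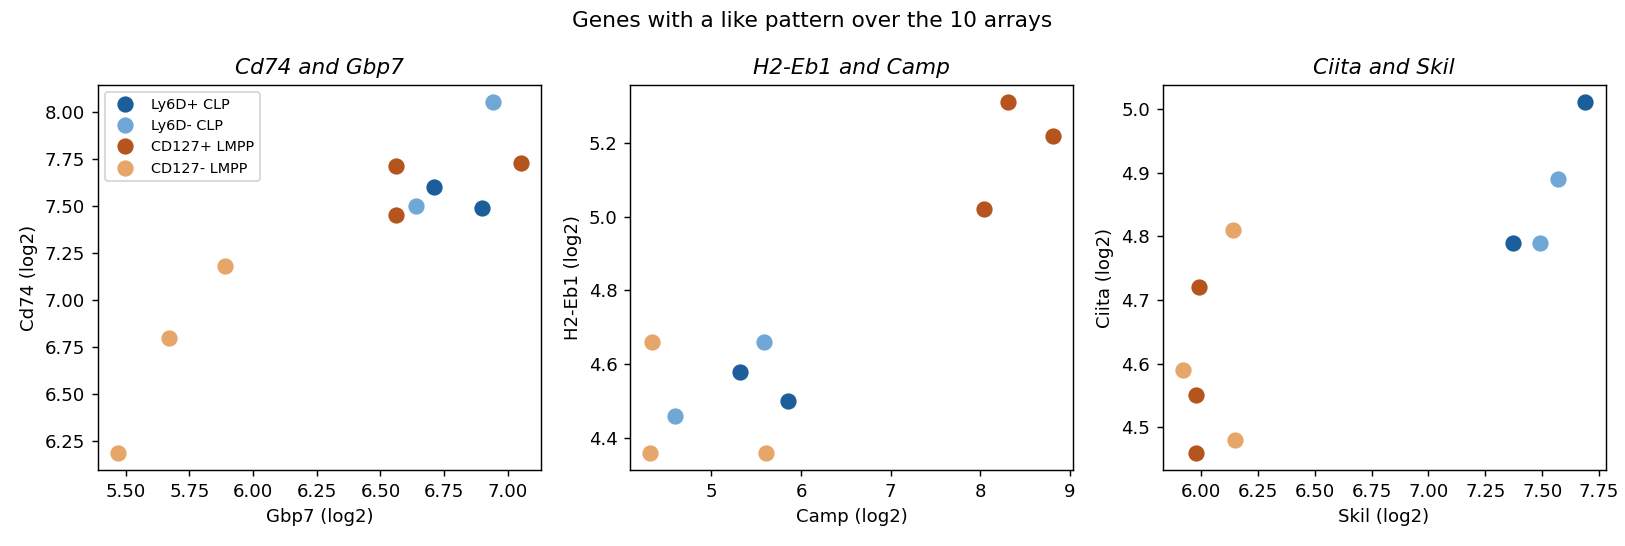
Log2 values on the 10 arrays of Cd74, H2-Eb1 and Ciita (vertical) against 1 of the 3 most alike genes of each, Gbp7, Camp and Skil (horizontal), coloured by sorted group. For H2-Eb1 and Camp the 3 CD127+ LMPP arrays stand apart at 5.02 to 5.31 on the vertical axis.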

How the data were processed

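The authors' deposited table holds log2 values for 269751 probe sets on 10 arrays. The scale was read as log2 from its range of 0.20433 to 14.79009. Affymetrix Power Tools is named in the submitters' processing notes. The probe-set summary, normalization and genome build were not given in the sources used here. Quartiles of the arrays differed by at most 0.1252 log2, so the values were used as they stand. Precision is limited by the number of arrays.

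A gene's value is the mean of its probe sets that carry 1 symbol, which gave 23152 genes from 233753 probe sets. Another 5106 with several symbols and 30892 with none were left out. One mean per sorted group was fitted to all 10 arrays with limma 3.58.1 in R 4.3.3, and p-values were adjusted by Benjamini-Hochberg over all genes of each comparison at 0.05. The low-signal limit comes from 1419 Olfr, Vmn1r, Vmn2r and Tas2r genes. Same-numbered arrays of different groups deviated together (r over 0.1) in 1 of 13 pairs, and differently numbered arrays in 1 of 24. The numbers were not taken as pairs, though so weak a check cannot exclude pairing.

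The genes of the set and the lists were chosen with earlier results of these data known, so that no list is independent evidence. All 10 genes are described. From each list, up to 3 genes past the threshold by size, or else the largest difference, were to be named in each comparison; further list genes were named after their values were seen. The genes most alike were the 3 with the highest Pearson r, leaving out predicted, small RNA and receptor genes. Some genes of the lists are not reported here. The steps were tested on simulated data. Alternatives were quantile normalization, median centring, other summaries of probe sets, filters on low signal, array weights, limma trend and robust settings, a replicate block, a 2-fold threshold, a fit of the compared arrays alone and each array left out. Figures used matplotlib 3.10.9 under Python 3.11.15.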

Additional observations from a re-analysis of the deposited data

How the results depend on the processing

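No called difference of a gene of the set turned its sign under any alternative; among 1443 values under alternatives, 58 lost a call, 39 gained one and 48 turned sign with no call on either side. The cause of the changed counts below was not tested, except that a 2-fold threshold asks for more. Counts are genes of the set called, out of 10. The number called over all genes moved as well, as given below, so a changed count is not read as a result about the set. For CD127+ against CD127- LMPPs the count was 1, and 0 with median centring, the brightest probe set, probe sets above the limit, the compared arrays alone, the replicate block or the 2-fold threshold. It was 2 with array weights and 3 with genes above the limit or with trend and robust settings. For Ly6D+ CLPs against CD127+ LMPPs it was 1, and 0 with the median probe set or the 2-fold threshold, 2 with quantile normalization, the brightest probe set, probe sets above the limit or array weights, and 3 with genes above the limit or trend and robust settings. For Ly6D- CLPs against CD127+ LMPPs it was 0, and 1 with quantile normalization or trend and robust settings and 2 with either low-signal filter. For Ly6D- CLPs against CD127- LMPPs it was 2, 3 with probe sets above the limit or trend and robust settings (H2-Ob added), 1 with the median probe set, array weights, the 2-fold threshold or the replicate block, and 0 with the brightest probe set or the compared arrays alone. For Ly6D+ CLPs against CD127- LMPPs it was 2, and 4 with genes above the limit or trend and robust settings, 3 with the brightest probe set (H2-Oa added), probe sets above the limit or the replicate block (H2-DMb1 added), and 1 with the 2-fold threshold. Between the CLP groups it was 0 throughout. In the F test it was 3, 4 with quantile normalization, genes above the limit or trend and robust settings, and 2 with the brightest probe set or the replicate block. Leaving out 1 array at a time gave 1 to 4 in the F test over 4 groups (3 with all arrays), 0 to 2 for CD127+ against CD127- LMPPs and for Ly6D- CLPs against CD127- LMPPs, 1 to 2 for Ly6D+ CLPs against CD127- LMPPs, 0 to 1 for Ly6D+ CLPs against CD127+ LMPPs, and 0 for the other 2. Where an array left out leaves 1 in a CLP group, that array is assumed to vary like the others.

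Of 13 same-numbered pairs of arrays, 1 had r over 0.1 (range -0.043 to 0.127). Of 24 differently numbered pairs, 1 did too (range -0.136 to 0.136). Deviations of the 2 arrays in a CLP group mirror each other, so the pairs are not independent and the check cannot exclude pairing. With the replicate number as a block, the F test called 2 of the 10 genes, CD127+ against CD127- LMPPs 0, Ly6D- CLPs against CD127- LMPPs 1 and Ly6D+ CLPs against CD127- LMPPs 3.

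Over all genes the number called also moved by more than 1.5 times. With all 10 arrays it was 1042 to 3516 in the F test (2171 as reported), 88 to 581 for CD127+ against CD127- LMPPs (341), 1 to 78 between the CLP groups (23) and 22 to 1398 for Ly6D- CLPs against CD127+ LMPPs (476). It was 321 to 1954 for Ly6D+ CLPs against CD127+ LMPPs (933), 518 to 2551 for Ly6D- CLPs against CD127- LMPPs (1643) and 809 to 3451 for Ly6D+ CLPs against CD127- LMPPs (2517).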
